A study of Mus musculus with 62 samples.

Results

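The Ribo-seq to RNA-seq ratio of the wild-type mouse heart was described gene by gene for 5281 of the 10485 genes of the count table that matched the annotation. A gene was included where its count averaged 10 or more over the 4 RNA-seq libraries and also over the 4 Ribo-seq libraries, and 1 transcript was taken for each gene. Ribo-seq sequences the mRNA fragments that ribosomes protect from RNase, so that the ratio of footprints to mRNA, which the study calls translation efficiency (TE), gives the ribosome load of an mRNA relative to that of the others.

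The study compared hearts of mice with and without RPL3L, the ribosomal protein that replaces RPL3 in part of the ribosomes of heart and skeletal muscle, and it also used C2C12 myoblasts. The wild-type group was WT (*Rpl3l*+/+) mice at 10 weeks of age and carried neither a transgene nor a drug. Whole hearts were frozen in liquid nitrogen and lysed with cycloheximide, which holds elongating ribosomes in place, and footprints of 17 to 34 nt were selected after digestion with RNase I. RNA-seq libraries were made from mRNA selected by its poly(A) tail, whereas Ribo-seq libraries were not selected in this way. The hearts of 4 *Rpl3l* KO (*Rpl3l*-/-) mice of the same age were used only as a further set of hearts in which the same ratio was measured.

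A cell sets the output of an mRNA not only by its abundance but also by how often ribosomes start on it. Known elements that lower or raise this frequency include the 5′ terminal oligopyrimidine (TOP) tract of mRNAs for the translation machinery, upstream AUG codons, which divert scanning ribosomes, and the iron-responsive hairpin, to which iron regulatory proteins bind. Heart muscle makes few new ribosomes and renews its contractile proteins slowly, and it draws most of its ATP from mitochondrial oxidation of fatty acids.

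WT RNA-seq libraries held 3594696 to 14041366 counts over all transcripts, and WT Ribo-seq libraries held 1873813 to 3192090. All genes of the table lie on the plus strand, so that genes on the minus strand, among them *Myh6* and *Ttn*, are not analysed here. Both assays were counted over the coding sequence: in 982 of 1131 pairs of transcripts that shared their coding exons but differed by more than 200 bases in length the RNA-seq counts were identical, as were the Ribo-seq counts in 810 of 892 pairs. Markers of heart muscle were abundant in every library, with 6 of 12 listed genes in the table and a summed level of 99900 to 118000 CPM (counts scaled to a common library size) in RNA-seq. Markers of airway and lung (7 of 13 genes in the table) summed to 0.697, 984, 8.12 and 263 CPM in RNA-seq of replicates 1 to 4 and to 6.91, 2050, 34.8 and 595 CPM in Ribo-seq, and 0 of the 5 of them that were tested passed the test of the ratio. Markers of fat summed to 282 to 1190 CPM in RNA-seq, with the same order of the 4 replicates in Ribo-seq. Because same-numbered libraries of the 2 assays shared these differences, they entered both sides of the ratio.

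Values of single genes are CPM scaled by TMM over all 8 libraries, a scaling that sets the bulk of the genes to a log2 ratio near 0, so that every ratio is relative to the other genes of the heart. The log2 ratio, its standard error (SE) and its adjusted p-value come from the quasi-likelihood test of edgeR with Benjamini-Hochberg adjustment over the 5281 genes. The fit took the 8 libraries as independent. Its p-values therefore rest on the spread between the 4 libraries within each assay, not on the spread of the ratio between hearts. An alternative fit with the replicate number as a block is given below. The middle of the distribution was narrow and its tails were long. The log2 ratio was between −0.68 and 0.65 from the 25% to the 75% quantile and between −1.94 and 1.71 from the 5% to the 95% quantile, and its extremes were −6.06 and 5.07. From the 10% to the 90% quantile the ratio rose 6.5-fold. At an adjusted p under 0.05, 1629 genes (30.8%) were higher in Ribo-seq than in RNA-seq and 1731 (32.8%) were lower. In a test against a 2-fold difference, 430 genes (8.14%) were higher and 578 (10.9%) lower, and counts of list members are to be read against these shares. The ratio also fell with mRNA abundance (Spearman's rho −0.405 across 5281 genes, which are not independent replicates). In the lowest quintile of RNA-seq CPM the median log2 ratio was 0.68, with 18.2% of genes higher and 0.0% lower by the 2-fold test. In the highest quintile it was −0.42, with 2.08% and 25.5%. RNA-seq counts are the denominator of the ratio and enter the minimum count. The lowest quintile ended at 19.6 CPM, and the minimum Ribo-seq count leaves out genes of such low abundance whose ratio is also low. The share of 0.0% lower genes there is therefore largely set by the filter. How far the denominator and the minimum counts make up the rest of this gradient was not tested. Lists are to be read against the gradient too. With library totals in place of the TMM scaling the median log2 ratio of all genes moved to 0.40 and the split became 2541 higher and 1099 lower genes, so that the sign of a ratio nearer to 0 than this shift depends on the scaling. The medians of the 36 lists relative to that of all genes kept their sign under both other scalings. Such a scaling shifts all genes nearly alike, so these relative medians could hardly have turned.

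**Figure D1:**
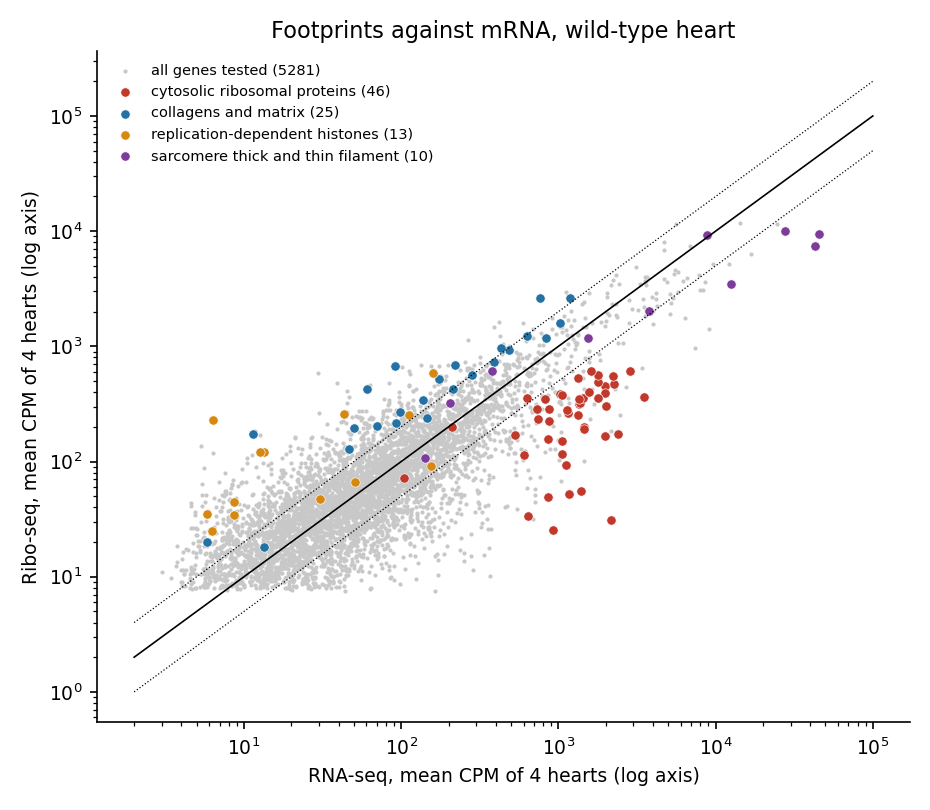
Mean CPM of the 4 Ribo-seq libraries (vertical, log axis) against that of the 4 RNA-seq libraries (horizontal, log axis) for 5281 genes of the wild-type heart; the solid line marks equal CPM and the dotted lines a 2-fold difference. Ribosomal protein genes (46) lie below the line, genes of the matrix (25) and most histone genes (13) above it, and the abundant mRNAs of the thin and thick filaments (10) lie at the right, 7 of them lower in Ribo-seq.

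The mRNAs of the translation machinery carried the fewest footprints for their abundance. Of 46 cytosolic ribosomal protein genes tested, 45 were lower in Ribo-seq, 42 of them by more than 2-fold, and 0 were higher, and their median log2 ratio was −2.12, against 0.00 for all genes. Together they took 5.41% ± 0.638 (SD, n = 4) of the RNA-seq counts and 1.47% ± 0.375 (SD, n = 4) of the Ribo-seq counts. The list of other TOP mRNAs, which holds elongation factors and RNA-binding proteins, had a median of −1.64, with 9 of 14 members lower and 1 higher. *Eef2*, the elongation factor that moves the ribosome along the mRNA, was at 4810, 7195, 6611 and 7037 CPM in RNA-seq and at 2791, 1665, 1284 and 1300 CPM in Ribo-seq (log2 ratio −1.86 ± 0.214 SE, adjusted p = 1.69e-06). All 4 RNA-seq values of *Eef2* lie above all 4 Ribo-seq values, and the Ribo-seq value of replicate 1 stands above the rest. *Tpt1* (translationally controlled tumor protein), the most abundant mRNA of this list, had a mean of 7396 CPM in RNA-seq and 973 CPM in Ribo-seq (log2 ratio −2.92 ± 0.207). *Pabpc4*, a cytoplasmic poly(A)-binding protein, had the lowest ratio of the list, at −3.57. *Naca* (0.00) and *Vim* (−0.14) did not pass the test.

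The size of this difference varied between hearts. Within replicate numbers 1 to 4 the median log2 ratio of the ribosomal protein genes, relative to all genes, was −1.69, −2.36, −2.15 and −2.51, and that of the other TOP mRNAs was −0.88, −1.78, −1.79 and −1.94. Replicate 1 was the nearest to 0 in both lists, and all 4 hearts were well below 0. The ratio was also uneven among the ribosomal proteins. *Rps2*, of the small subunit, was at 2098, 2536, 1642 and 2415 CPM in RNA-seq and at 53.2, 22.5, 27.4 and 21.9 CPM in Ribo-seq, the lowest ratio of all genes tested (−6.06 ± 0.249). *Rpl4* was at −2.21 and *Rpl38* at −0.82, and *Rps27l*, a paralog of *Rps27*, was at −0.07 and did not pass the test. *Rpl3l* itself (17:24727820-24736143, GRCm38, GENCODE M21) was at 1182, 1559, 1077 and 1478 CPM in RNA-seq and at 559, 542, 524 and 519 CPM in Ribo-seq, and its log2 ratio was −1.30 ± 0.124 (adjusted p = 2.29e-07).

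Ribosomal protein genes have many processed copies in the genome. A median of 96.6% of the 28-base windows in the coding sequence of these genes also occurred letter for letter in transcripts of other genes, against 0% for all genes, and a window of *Rps2* occurred in transcripts of a median of 28 genes, one of *Rpl21* (log2 ratio −5.16) in 38 and one of *Rpl4* in 1. Over all genes, the median log2 ratio was 0.03 where 0% of windows were shared and −0.39 in the 246 genes with more than 90% shared. The part of shared sequence in the result was not tested. Of the ribosomal proteins, *Rpl3l* alone had under 5% shared windows. In the other TOP list such members were *Eif3f*, *Eif3l* and *Vim*, and in a fit of genes with under 5% shared windows, added after the data had been seen, the median of these 3 was −0.26 with 1 lower. *Rpl3l* had 0% shared windows, *Eif3f* (a subunit of initiation factor 3, log2 ratio −1.47 ± 0.168) had 1.23% and *Rack1* (a scaffold of the small subunit, −1.43 ± 0.196) had 5.52%, whereas *Eif3l* (0%, log2 ratio −0.22) and *Vim* (1.02%, −0.14) did not pass the test.

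The TOP tract is defined by a C at the first base of the mRNA and a run of pyrimidines behind it, so the first 15 bases at the annotated start nearest to the counted transcript were taken from RefSeq (GRCm38.p6, plus strand), with the unbroken run of pyrimidines from the first C in capitals. They are shown for the 6 members of both lists with the longest such run, with the ratio of each.
Fau, chr19:6057947-6057961: CTTCCTCTTTCTTga
Rpl28, chr7:4792965-4792979: CTCTTTCCgtctccg
Rpl38, chr11:114668580-114668594: CTTTCCCCgttctct
Eif3f, chr7:108934415-108934429: CTCTCTTTCTCggca
Rack1, chr11:48800360-48800374: CTTTTTCTCCacagg
Nap1l1, chr10:111473227-111473241: CTTTTTTagcgccat
The log2 ratios of these genes were −1.59 (*Fau*), −2.31 (*Rpl28*), −0.82 (*Rpl38*), −1.47 (*Eif3f*), −1.43 (*Rack1*) and −0.24 (*Nap1l1*), of which the last did not pass the test. A C followed by 4 pyrimidines stood at the annotated start of 6 of 39 ribosomal protein genes with a RefSeq start and of 94 of 4163 genes in all (2.26%). The 6 had a median of −1.63 and the 33 without it −2.27. Among the ribosomal protein genes the RefSeq start lay from 0 (*Rplp0*) to 575 bases (*Rps25*) from the start of the counted transcript. The tract depends on the exact first base, so this split cannot tell members with a tract from those without. Among genes outside both lists, the 85 with such a start had a median of −0.19, against −0.01 for the others.

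Initiation factors were lower as well, with a median of −0.61, 14 of 21 members lower and 2 higher. *Eif1*, which guards start codon choice, had the lowest ratio (−2.62 ± 0.136), with nearly all of its windows shared, and *Eif4g1*, the scaffold that joins cap and ribosome, was at −0.99. Cytosolic aminoacyl-tRNA synthetases did not follow: their median was 0.03, with 3 of 8 lower and 1 higher. Of 47 mitochondrial ribosomal proteins, 26 were lower and 5 higher (median −0.41), from *Mrpl30* (−2.42) to *Mrps2* (0.59, a call that was lost without replicate 1 or 2). This balance turned when trends with length and GC content were removed, to 12 lower and 18 higher with a median of 0.005.

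**Figure D2:**
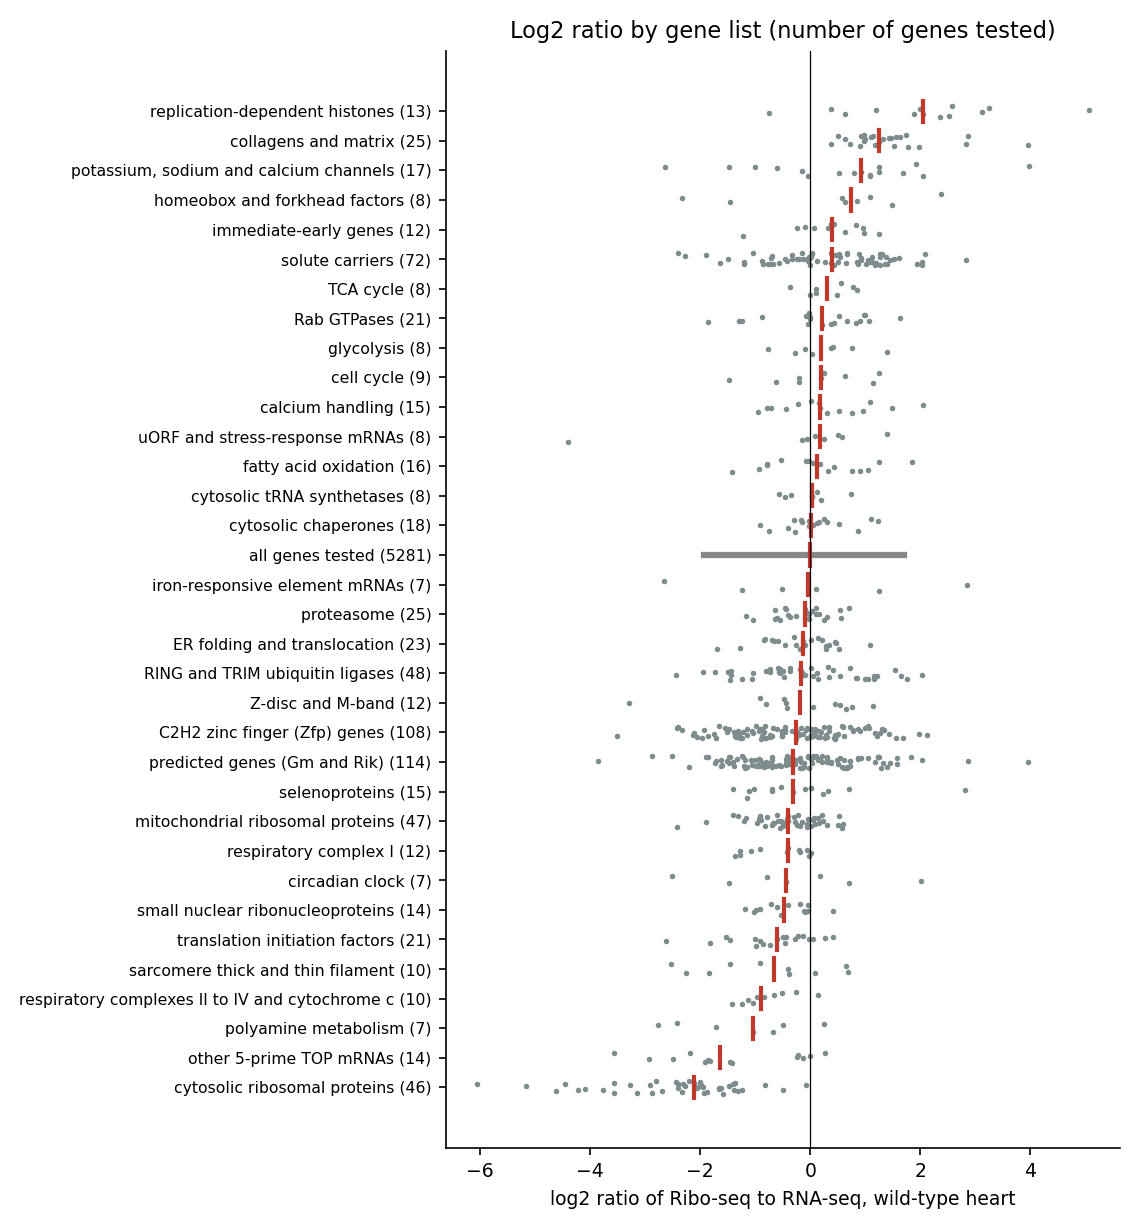
Log2 ratio of Ribo-seq to RNA-seq (horizontal) for the members of each list with at least 7 genes tested; each point is a gene, the red bar is the median of the list, and the grey bar gives the 5% to 95% range of all 5281 genes. Medians run from −2.12 for cytosolic ribosomal proteins to 2.04 for replication-dependent histones.

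Messenger RNAs of replication-dependent histones stood at the other end. Of 13 tested, 12 were higher in Ribo-seq, 9 of them by more than 2-fold, and 1 was lower, with a median of 2.04. Where a mean count of 50 was required, which leaves fewer of these genes, the median relative to all genes was 0.86. These mRNAs are known to end in a stem-loop in place of a poly(A) tail, and the RNA-seq libraries of the study were selected for poly(A) whereas the Ribo-seq libraries were not, which was not tested here. The stem-loop was found in the annotated 3′ UTR (GENCODE M21, GRCm38, plus strand) of 10 of the 13 genes and of 15 of all 5277 genes with a coding sequence (0.284%). It is shown with its paired arms in capitals for 4 members.
Hist1h4b, chr13:23757366-23757381: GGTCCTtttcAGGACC
Hist1h4h, chr13:23531458-23531473: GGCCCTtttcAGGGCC
Hist1h1c, chr13:23739512-23739527: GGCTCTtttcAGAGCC
Hist1h1d, chr13:23555787-23555802: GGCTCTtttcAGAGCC
*Hist1h4b* was at 11.5, 17.8, 7.73 and 13.6 CPM in RNA-seq and at 118, 124, 101 and 140 CPM in Ribo-seq (log2 ratio 3.24 ± 0.2, adjusted p = 2e-09). Every Ribo-seq value of this histone H4 gene was above every RNA-seq value, which was a condition of the rule for the 12 highest genes. The linker histone gene *Hist1h1d* had the highest ratio of all genes (5.07 ± 0.268), with 1 to 39 RNA-seq counts in a library, and *Hist1h1c*, the most abundant linker histone here, was at 1.88. *Hist1h2bc*, for which no stem-loop was found in the counted transcript, was the lower one (−0.75), and 100% of its windows were shared. The other members without a stem-loop there, *Hist2h2be* (2.04) and *Hist1h2br* (2.35), were higher. A median of 84.0% of windows in this list were shared between genes, so that values of single histone genes are uncertain.

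Among mRNAs known to hold an iron-responsive hairpin, the storage protein and the receptor of iron stood at opposite ends. Binding of an iron regulatory protein in the 5′ UTR blocks initiation, whereas in the 3′ UTR it protects the mRNA from decay. The hairpin (a C, 5 bases, the loop CAGTGN in which N is not G, and 5 bases that pair with the first 5, G with T allowed) was searched on the strand of the mRNA in the annotated UTRs of the counted transcripts. It occurred in the 5′ UTR of 8 of 5277 genes (0.152%) and in the 3′ UTR of 24 (0.455%), and only *Tfrc* held 4 of them. The loop is in capitals.
Fth1 5′ UTR, chr19:9982738-9982754: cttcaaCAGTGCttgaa
Alas2 5′ UTR, chrX:150547464-150547480: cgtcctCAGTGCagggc
Tfrc 3′ UTR, chr16:32631225-32631241: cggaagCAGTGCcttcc
Tfrc 3′ UTR, chr16:32631604-32631620: cgggagCAGTGTcttcc
Tfrc 3′ UTR, chr16:32631669-32631685: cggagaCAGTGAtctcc
Tfrc 3′ UTR, chr16:32631716-32631732: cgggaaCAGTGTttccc
*Fth1*, the ferritin heavy chain that stores iron, was at 8498, 8994, 8566 and 9988 CPM in RNA-seq and at 992, 1333, 2414 and 936 CPM in Ribo-seq (log2 ratio −2.67 ± 0.236, adjusted p = 1.04e-07). *Tfrc*, the transferrin receptor that takes iron up, was at 74.6, 67.1, 34.5 and 78.5 CPM in RNA-seq and at 400, 593, 207 and 664 CPM in Ribo-seq (2.86 ± 0.309, adjusted p = 8.94e-07). The Ribo-seq values of both genes were set apart from the RNA-seq values, in opposite directions, and replicate 3 had the most footprints on *Fth1* and the fewest on *Tfrc*. *Alas2*, the first enzyme of heme synthesis in red cells, was at −1.25 ± 0.194. Further members tested were *Sdhb* (−0.52), *Cdc42bpa* (−0.03, not past the test) and *Epas1* (1.24), in none of which the hairpin was found in the form searched. *Ftl1-ps1*, a copy of the ferritin light chain gene named after its values were seen, held the hairpin in its 5′ UTR and was at −1.60, with 100% of its windows shared. The 8 genes with a hairpin in the 5′ UTR had a median log2 ratio of −0.23, with 3 lower (37.5%, against 32.8% of genes without one) and 1 higher. Genes with a hairpin in the 3′ UTR had a median log2 ratio of 0.91, with 15 of 24 higher and 4 lower. These are 62.5% and 16.7%, against 30.7% and 32.8% of genes without one. A long 3′ UTR offers more places for a match, and the highest quintile of 3′ UTR length had a median of 0.60. The part of the hairpin in these ratios was not tested.

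*Atf4*, a transcription factor of the integrated stress response whose mRNA is known for its upstream reading frames, had one of the lowest ratios of the heart. It was at 355, 330, 299 and 356 CPM in RNA-seq and at 21.8, 12.04, 13.3 and 14.6 CPM in Ribo-seq, with a log2 ratio of −4.40 ± 0.164 (adjusted p = 1.08e-11). *Ddit3*, a target of ATF4 with an upstream frame of its own, had a mean of 147 counts in RNA-seq and 6.75 in Ribo-seq and so did not reach the minimum for a test, as did *Slc35a4* with 172 and 5.25 counts. The other tested members of this list were not low. *Hif1a*, the oxygen-regulated transcription factor, was higher by the 2-fold test (1.40), *Uchl1* was at 0.50 (a call lost without some of the libraries), and *Cebpa*, *Cebpb*, *Gadd45g*, *Ppp1r15b* and *Bace1* had log2 ratios of −0.15 to 0.58 and did not pass the test. The mRNAs of polyamine synthesis, several of which are regulated by upstream frames or by frameshifting, had a median of −1.04, with 5 of 7 lower and 0 higher. *Odc1* (ornithine decarboxylase) was at −2.76, *Oaz1* (antizyme, which degrades it) at −2.43 and *Smox* (spermine oxidase) at −1.71. Of these, *Odc1* and *Oaz1* had 84.4% and 91.6% shared windows, and *Smox* had 0%.

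Over all genes, the ratio fell with the number of ATGs in the annotated 5′ UTR of the counted transcript. The median log2 ratio was 0.13 for 2730 genes with 0 upstream ATGs, −0.04 for 1175 with 1, −0.28 for 825 with 2 to 3 and −0.28 for 475 with 4 or more. The share of genes lower in Ribo-seq was 27.8%, 33.1%, 41.8% and 44.8% in the same order. Long 5′ UTRs hold more ATGs. The difference was also seen within quintiles of 5′ UTR length, in which the lengths of the groups were not matched further. Among the genes in the highest quintile of 5′ UTR length (323 to 3419 bases), the median was 0.44 for the 141 genes with 0 upstream ATGs and −0.28 for the 679 with 2 or more, and in the middle quintile (128 to 201 bases) it was 0.15 and −0.33. The length of the 5′ UTR itself had little relation to the ratio (Spearman's rho −0.029 across 5277 genes, which are not independent replicates). The bases around the start codon made a smaller difference, with a median of 0.02 for 2416 genes with both favoured bases (A or G upstream and G right after the start codon) and −0.14 for 305 genes with neither. Genes of very low ratio were found with and without upstream ATGs in the annotated 5′ UTR. *Amz2* (log2 ratio −4.165) has 8 of them, and *Atf4* (−4.40) and *Ucp2* (−4.37) have 3 each. *Thap12* (−5.205), *Stard10* (−4.45) and *Egfl7* (−4.255) have 0. *Odc1*, whose ratio was less low (−2.76), has 2.

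**Figure D3:**
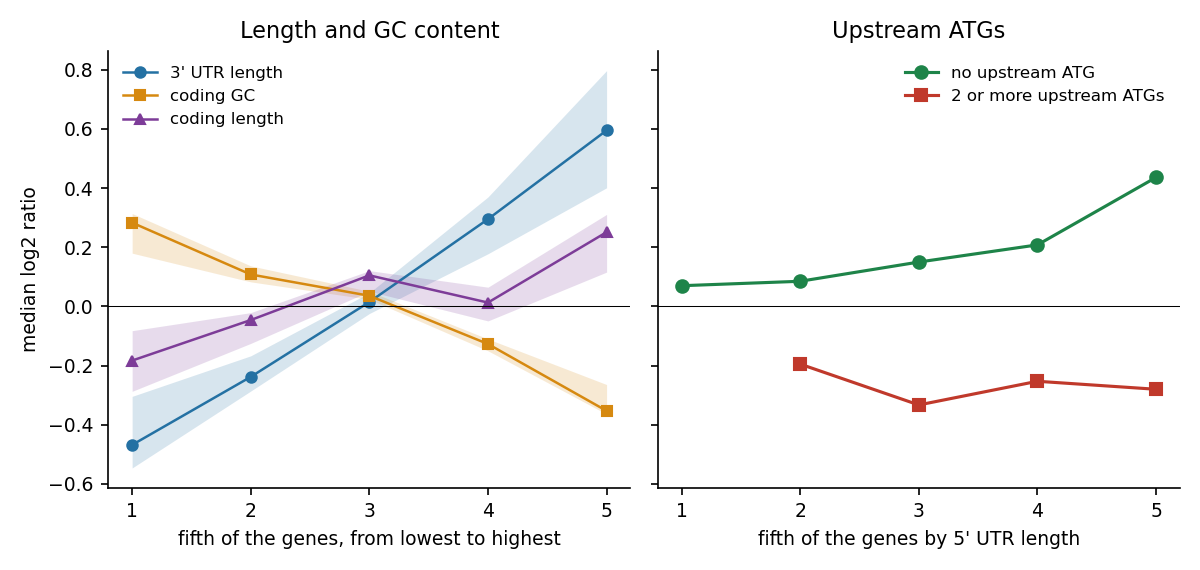
Median log2 ratio (vertical) by quintiles of all genes. Left, quintiles by 3′ UTR length, coding GC content and coding length, with the shaded band spanning the medians within the 4 replicate numbers; right, quintiles by 5′ UTR length, separately for genes with no upstream ATG and with 2 or more (quintiles with under 20 genes left out). The median rose from −0.47 to 0.60 with 3′ UTR length and fell from 0.28 to −0.35 with coding GC content, and genes with 2 or more upstream ATGs stayed below genes with none in each quintile shown.

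The ratio rose with the length of the 3′ UTR and fell with the GC content of the coding sequence. In the lowest quintile of 3′ UTR length (median 168 bases) the median log2 ratio was −0.47, with 3.88% of genes higher and 18.8% lower by the 2-fold test, and in the highest quintile (median 3255 bases) it was 0.60, with 21.6% and 4.36%. In replicate numbers 1 to 4 the median of the highest quintile ranged from 0.40 to 0.80. By coding GC content, the median was 0.28 in the lowest quintile (35.6% to 47.4% GC) and −0.35 in the highest (58.0% to 75.2%), whereas in the KO hearts it was 0.06 and −0.11, and this difference between genotypes was not tested. The gradient with 3′ UTR length was −0.45 to 0.65 in the KO hearts. Both gradients were present together: among genes of the lowest quintile of GC content, the median was −0.04 for the shortest and 0.69 for the longest quintile of 3′ UTRs, and among genes of the highest quintile of GC content it was −0.68 and 0.29. Splines of 3′ UTR length accounted for 11.9% of the variance of the log2 ratio over genes, those of coding GC content for 3.44%, those of coding length for 1.93%, and all together for 14.7%. Whether these gradients lie in the heart or in the libraries was not tested. In a fit with these trends removed, which was added after the data had been seen, 1733 genes were higher and 1542 lower. Counts from that fit are given beside the lists whose balance of higher and lower members it moved.

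The contractile apparatus differed among its members. Some of the most abundant mRNAs among the plus-strand genes analysed, those of small thin and thick filament proteins, carried few footprints for their abundance. Low ratios were common among abundant mRNAs of all kinds: in the highest quintile of RNA-seq CPM 25.5% of genes were lower by the 2-fold test. *Tnnt2* (cardiac troponin T) was at 46770, 48440, 35800 and 40590 CPM in RNA-seq and at 6684, 7653, 7967 and 7552 CPM in Ribo-seq (log2 ratio −2.52 ± 0.112, adjusted p = 5.67e-11). *Myl2*, the ventricular regulatory light chain, was at −2.26, *Tnnc1* (troponin C) at −1.85 and *Myl3*, the ventricular essential light chain, at −1.46, all past the 2-fold test. *Mybpc3*, the myosin-binding protein C of the thick filament, had 8790 CPM in RNA-seq and 9296 CPM in Ribo-seq on average and did not pass the test (0.08 ± 0.112). Of the 10 members tested, 7 were lower and 2 higher, the latter being *Tmod1* (a cap of the thin filament, 0.69) and *Myh7b* (0.65). The call of *Tmod1* was lost with DESeq2, with a mean count of 50, with the trends removed and without several of the libraries, and that of *Myh7b* without replicate 4. The list took 12.4% ± 1.08 (SD, n = 4) of the RNA-seq counts and 5.04% ± 0.208 (SD, n = 4) of the Ribo-seq counts. With the trends of length and GC content removed, 5 were lower and 2 higher.

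In the Z-disc and M-band, 5 of 12 members were lower and 5 higher, and with the trends removed 3 and 6. *Xirp2*, an actin-binding protein of the intercalated disc, was at 801, 1068, 950 and 1192 CPM in RNA-seq and at 89.4, 125, 92.9 and 104 CPM in Ribo-seq, the lowest ratio of the list (−3.29 ± 0.152), with 0% shared windows. *Flnc* (filamin C) had the highest, at 1.15, and *Myom2* of the M-band was at 0.65 with a range of 1495 to 2861 CPM between RNA-seq libraries, a call that was lost with DESeq2 and without some of the libraries. Of the calcium handling genes, 7 of 15 were higher and 4 lower, and with the trends removed 7 and 6. *Cacna2d1*, a subunit of the L-type calcium channel, was at 98.3, 56.1, 129 and 103 CPM in RNA-seq and at 449, 418, 360 and 384 CPM in Ribo-seq (2.04 ± 0.182), and *Camk2d*, the calcium-dependent kinase of cardiomyocytes, was at 1.48. The small inhibitor of the calcium pump phospholamban (*Pln*) was at −0.71, the calcium-binding protein *Hrc* at −0.95, and *Casq2* (calsequestrin) at 0.75.

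Of 17 genes named as potassium, sodium or calcium channels, 9 were higher and 4 lower, with a median of 0.92. *Kcnj2*, which carries the inward rectifier current of ventricular myocytes, had the highest ratio of them. It was at 11.5, 10.3, 13.9 and 10.1 CPM in RNA-seq and at 148, 180, 231 and 159 CPM in Ribo-seq (log2 ratio 3.98 ± 0.188, adjusted p = 1.12e-10), and 0% of its windows were shared. *Cacna1s*, the calcium channel of skeletal muscle, had the lowest (−2.63 ± 0.247).

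**Figure D4:**
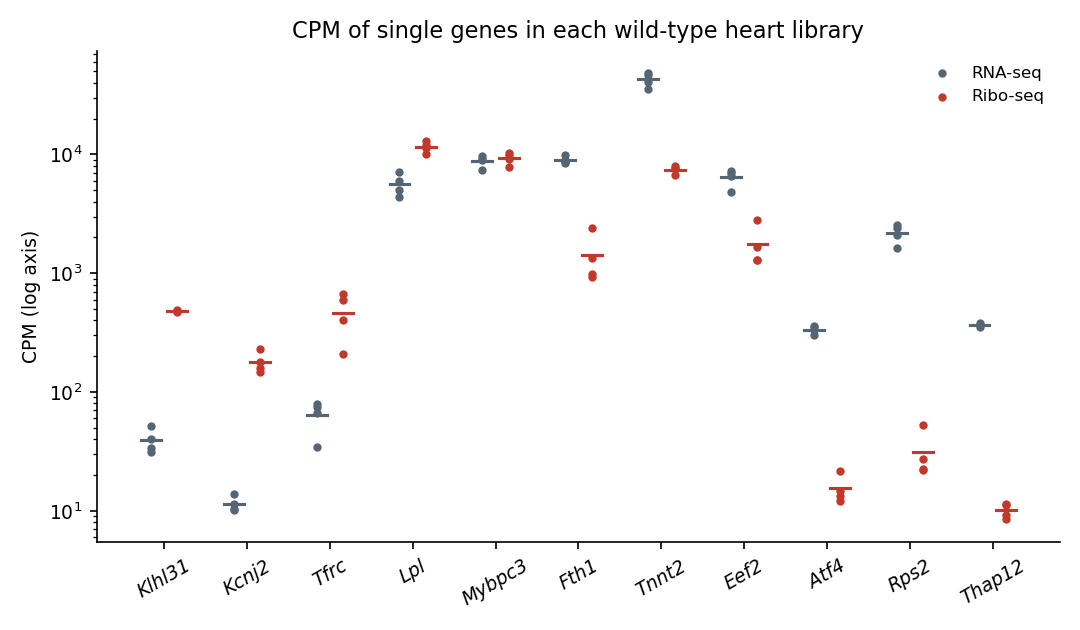
CPM (vertical, log axis) of 11 genes in each of the 4 RNA-seq (grey) and 4 Ribo-seq (red) libraries of the wild-type heart; points are libraries and bars are means. *Klhl31*, *Kcnj2*, *Tfrc* and *Lpl* lie higher in Ribo-seq in all 4 libraries, *Mybpc3* overlaps, and the other genes lie lower, with *Rps2* and *Thap12* furthest apart.

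Nuclear-encoded subunits of the respiratory chain were lower or did not pass the test, and 0 of 22 were higher. In complex I, 7 of 12 were lower (median −0.41), from *Ndufb9* (−1.36) to *Ndufb2* (0.02, not past the test). In complexes II to IV with cytochrome c, 9 of 10 were lower (median −0.90). *Cox7a1*, the heart and muscle isoform of a cytochrome oxidase subunit, was at 4643, 5549, 4430 and 5924 CPM in RNA-seq and at 1682, 1858, 2090 and 2075 CPM in Ribo-seq (−1.41 ± 0.118, adjusted p = 5.37e-08). These subunits are short, with a median 3′ UTR of 84.5 bases in complex I, and with the trends removed 5 of 12 members of complex I were lower and 5 higher, and 6 of 10 of the second list were lower and 2 higher. The mRNAs of the ATP synthase subunits *Atp5a1* and *Atp5b* were among those with the most footprints. *Atp5a1* held 1.34% of the Ribo-seq counts and 1.25% of the RNA-seq counts (log2 ratio −0.30, above 0 with library totals), and *Atp5b* held 1.33% and 2.12% (−1.08).

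The lists of the tricarboxylic acid cycle (median log2 ratio 0.30) and of fatty acid oxidation (0.12) lay higher than those of the respiratory chain. Of the tricarboxylic acid cycle, 4 of 8 were higher and 1 lower: *Cs* (citrate synthase, 0.84), *Idh3a* (0.77), *Ogdh* (0.56) and *Dlst* (0.49) were higher, and *Mdh2* was lower (−0.37), a direction that turned with library totals and with the trends removed. In fatty acid oxidation, 7 of 16 were higher and 5 lower (43.8% and 31.2%, against 30.8% and 32.8% of all genes). With the trends removed, 7 of 8 genes of the cycle were higher and 0 lower, and of fatty acid oxidation 10 were higher and 2 lower. *Cpt1a*, the liver-type enzyme that admits fatty acids to mitochondria, was at 71.3, 42.4, 96.9 and 54.0 CPM in RNA-seq and at 251, 259, 258 and 182 CPM in Ribo-seq (1.85 ± 0.2), and *Hadhb*, of the trifunctional protein, was at 0.77. *Lpl*, the lipase that frees fatty acids in heart capillaries, was at 5962, 4378, 7139 and 4991 CPM in RNA-seq and at 10010, 11420, 12920 and 11980 CPM in Ribo-seq (1.04 ± 0.137), and with 1.33% of the Ribo-seq counts it ranked beside the subunits of ATP synthase. *Fabp3*, the small fatty acid carrier of the cytosol, was at −1.42. In glycolysis, 4 of 8 were higher and 2 lower, from *Eno3* (muscle enolase, −0.77) to *Slc2a1* (the basal glucose transporter, 1.40), and with the trends removed 6 were higher and 0 lower.

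The mRNAs of the extracellular matrix were higher almost throughout. Of 25 genes tested, 24 were higher in Ribo-seq, 13 by more than 2-fold, and 0 were lower, with a median of 1.24, within 1.10 to 1.38 in each of the 4 replicate numbers. All 25 had under 5% shared windows, and with the trends of length and GC content removed 25 of 25 were higher. *Nid1* (nidogen, of basement membranes) was at 95.1, 62.3, 129 and 81.6 CPM in RNA-seq and at 708, 683, 634 and 662 CPM in Ribo-seq (2.87 ± 0.171, adjusted p = 1.43e-09). *Thbs1* (thrombospondin 1, 3.96) and *Timp3* (an inhibitor of matrix proteases, 2.83) had ratios in the same range, and *Hspg2* (perlecan) had 766 CPM in RNA-seq and 2627 CPM in Ribo-seq on average (1.77). Among fibrillar collagens, *Col1a1* was at 1.11, *Col1a2* at 0.92 and *Col3a1* at 0.50, and the proteoglycan *Dcn* was at 1.15. *Timp1* (0.39) did not pass the test. The list took 0.687% ± 0.0274 (SD, n = 4) of the RNA-seq counts and 2.06% ± 0.0882 (SD, n = 4) of the Ribo-seq counts.

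Markers of cell types other than cardiomyocytes did not share 1 direction. Fibroblast markers, most of which are matrix genes, were higher in 6 of 6 genes tested, among them *Pdgfra*, a receptor that is not a matrix protein (2.31 ± 0.151). The macrophage markers *Mrc1* (2.16), *Csf1r* (0.94) and *Adgre1* (0.85) were all higher. The endothelial markers were split, with *Cdh5* at 1.52, *Vwf* at 1.195, *Tek* at −0.26 (not past the test) and *Egfl7*, a secreted protein of endothelium, at −4.25. The α-globins *Hba-a1* and *Hba-a2*, which share 94.0% and 93.0% of their windows, were at −1.41 and −1.36. Among atrial genes, *Nppa* (atrial natriuretic peptide) was at −1.22 and *Bmp10*, a secreted factor of the atria, at 2.72, with RNA-seq values of 118, 60.2, 168 and 60.0 CPM and Ribo-seq values of 787, 584, 754 and 514 CPM. In whole hearts, a difference in the number of cells of a type and one in the RNA of each cell cannot be told apart, and both assays are sums over the cell types.

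Outside the lists, the lowest and highest ratios were held by genes of diverse function. By the rule for the 12 lowest genes (past the 2-fold test, with no overlap between assays and at least 10 counts in every library), 6 were ribosomal protein genes and the others were *Thap12*, *Stard10*, *Atf4*, *Ucp2*, *Egfl7* and *Amz2*. *Thap12* (7:98703103-98718062, GRCm38), a THAP domain protein, was at 370, 383, 354 and 365 CPM in RNA-seq and at 8.46, 11.2, 9.13 and 11.5 CPM in Ribo-seq (−5.20 ± 0.143, adjusted p = 1.66e-12). *Stard10* (7:101317086-101346626), a lipid transfer protein that was also listed as an atrial marker, was at −4.45 and *Ucp2* (7:100493337-100502020), an uncoupling protein of the inner mitochondrial membrane whose mRNA is known to be poorly translated in many tissues, at −4.37. None of the windows of these 3 genes were shared with other genes. *Ucp2* had 301, 292, 503 and 362 CPM in RNA-seq and 15.7, 12.04, 27.4 and 15.6 CPM in Ribo-seq, with replicate 3 the highest in both assays.

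The 12 highest by the same rule were *Myh4*, *Kcnj2*, *Scd2*, *Klhl31*, *Hist1h4b*, *Map3k20*, *Atp2a3*, *Hist1h4j*, *Fsd1l*, *Ddx6*, *Nbeal1* and *Nid1*. *Klhl31* (9:77636500-77660127, GRCm38), a kelch protein of striated muscle, was at 33.6, 31.5, 51.5 and 40.2 CPM in RNA-seq and at 481, 491, 478 and 472 CPM in Ribo-seq (3.59 ± 0.142, adjusted p = 2.17e-11), and its Ribo-seq values differed little between hearts. *Map3k20*, a kinase that senses collided ribosomes, was at 41.0, 24.0, 70.6 and 45.9 CPM in RNA-seq and at 394, 445, 434 and 376 CPM in Ribo-seq (3.16 ± 0.21). *Ddx6*, an RNA helicase of translational repression, was at 2.98 and *Scd2*, a fatty acid desaturase, at 3.73, with 33.8% and 35.2% of their windows shared. *Myh4*, a fast skeletal myosin heavy chain, was at 29.4 CPM in RNA-seq and 590 CPM in Ribo-seq on average (4.30), and 34.0% of its windows were shared with other myosins, so that its footprints cannot be told apart from those of other myosin mRNAs there.

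Genes that passed the minimum count in 1 assay only were given no ratio, and many of them lay just below the minimum in the other assay. In the RNA-seq libraries alone 622 genes passed and in Ribo-seq alone 205. The latter include paralogs of abundant mRNAs: *Myh8*, *Myh13* and *Myh3* had a mean of 882, 694 and 482 counts in Ribo-seq and of 2.0, 0.0 and 0.0 in RNA-seq, and *Aldoart2*, a copy of the aldolase A gene that is expressed in testis, had 1468 and 0.75. Genes of histones H3 and H4, among them *Hist1h4d* (292 and 2.0 counts), were in this group too. In the former, *Csnk1g2* (775 counts in RNA-seq and 9.0 in Ribo-seq) and *Insyn1* (225 and 1.0) had at most 0.308% shared windows. The median share of shared windows was 0.0% and 0.0358% in the RNA-seq and the Ribo-seq group.

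Of the remaining lists, most had a median within the quartiles of all genes. In the proteasome 10 of 25 members were lower and 4 higher (median −0.09, and 7 and 8 with the trends removed), in cytosolic chaperones 3 of 18 and 5 (0.01), in the folding and translocation of proteins at the endoplasmic reticulum 9 of 23 and 6 (−0.12), and in small nuclear ribonucleoproteins 7 of 14 and 1 (−0.47), or 3 and 1 with the trends removed. In the list of homeobox and forkhead factors all members tested were forkhead genes, with 5 of 8 higher and 2 lower and a median of 0.75. This median was above the upper quartile of all genes. Tubulins and actins were higher in 2 of 5 and lower in 2 (−0.52). Selenoproteins, in which a UGA codon is read as selenocysteine, were lower in 8 of 15 and higher in 2 (7 and 5 with the trends removed), from *Selenom* (−1.41) to *Selenoi* (2.81), with *Gpx4* at −1.15. Of the circadian genes, 3 of 7 were lower and 2 higher: the nuclear receptor *Rora* was at 2.02, and *Dbp*, whose RNA-seq values ran from 180.5 to 515 CPM between hearts, was at −1.47. Immediate-early genes were higher in 3 of 12 and lower in 1 (0.40), and with the replicate number as a block 7 were higher and 1 lower. Cell cycle genes were higher in 3 of 9 and lower in 2 (0.19). Genes with names of the Zfp series of zinc fingers were lower in 44 of 108 and higher in 19 (−0.26, but 0.49 relative to all genes where a mean count of 50 was required). RING and TRIM ligases were lower in 20 of 48 and higher in 14 (−0.18), solute carriers higher in 33 of 72 and lower in 17 (0.39), and Rab genes higher in 9 of 21 and lower in 4 (0.22). These shares are to be read against 30.8% higher and 32.8% lower among all genes. Of the 36 genes listed for ATP synthase only 4 were tested, and of the mitochondrial genome and of nuclear noncoding RNAs 0 genes were in the table.

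The ratio was also measured in hearts that the selection of genes did not use. In the 4 *Rpl3l* KO hearts, fitted on the same 5281 genes, all 1008 genes past the 2-fold test in the wild type had a log2 ratio of the same sign, and 2943 of the 3360 genes called in the wild type were also called in the same direction. These libraries were made by the same protocols as the wild-type ones, and no difference between genotypes was tested here. List medians in KO hearts were −2.23 for ribosomal proteins, 1.23 for the matrix, 2.20 for histones, −0.70 for the thin and thick filaments and −1.05 for polyamine metabolism. Among single genes, *Atf4* was at −4.22, *Thap12* at −5.22, *Tfrc* at 2.42, *Fth1* at −3.12, *Tnnt2* at −2.44, *Klhl31* at 3.66 and *Kcnj2* at 4.07.

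**Figure D5:**
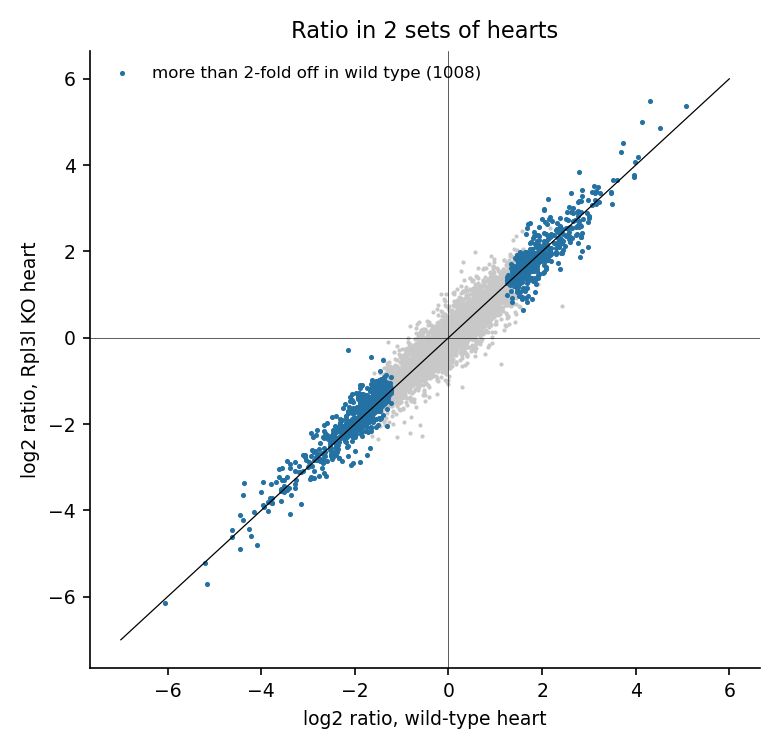
Log2 ratio of Ribo-seq to RNA-seq in *Rpl3l* KO hearts (vertical) against that in wild-type hearts (horizontal) for 5281 genes; blue points are the 1008 genes past the 2-fold test in the wild type and the diagonal marks equal values. All blue points lie in the quadrants of equal sign.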

How the data were processed

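RNA-seq and Ribo-seq of 4 WT hearts were analysed, with 4 *Rpl3l* KO hearts set beside them. The authors deposited read counts per transcript, without normalization, in 1 table. Per the labels, Ribo-seq reads were trimmed with cutadapt, aligned with STAR (GRCm38.p6 and mm10) and counted with featureCounts, and multiple mappings were allowed according to the study's methods. For RNA-seq the steps, and for both assays the use of strand in counting and the program versions, were not given in the sources used here. Of the columns of single samples, 34 were not used.

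Each transcript stood on 2 identical lines, of which 1 was kept. Of 23877 transcripts, 23662 matched GENCODE M21 (GRCm38), and the 215 without a match held 0.621% of the counts. The transcript with the highest mean count over the 8 libraries stood for its gene. Counts were fitted with edgeR 4.0.16 (R 4.3.3, glmQLFit, glmQLFTest, and glmTreat for the 2-fold test, all two-sided) with assay as the single term. Same-numbered libraries varied together: over 2712 genes with a mean count of at least 100, the deviations from the assay means correlated at 0.304 to 0.342 for the 4 same-numbered pairs and at −0.283 to 0.125 for other pairs, so the replicate number was used as a block in an alternative fit. On simulated counts of these libraries, the fit called 88.6% of 88 genes with a log2 ratio of 1 and 100% of 82 genes with 2. Of 4673 genes with a log2 ratio of 0 it called 0.107%. In that simulation only 170 of 4843 genes were changed, whereas 3360 of 5281 genes were called in the wild-type hearts. The simulated rates therefore cannot be taken as the error rate or power of the fit to the hearts. Their values at such a share of changed genes were not tested.

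Genes were named by rule: the 12 highest and 12 lowest log2 ratios past the 2-fold test with at least 10 counts in every library and no overlap, the 12 with the largest share of Ribo-seq counts, in each list the extremes and the 2 most abundant members, all members of lists of at most 12, cell type markers and *Rpl3l*. *Ftl1-ps1*, *Eif3l*, *Hist2h2be*, *Hist1h2br* and the genes that passed in 1 assay were named after their values were seen. The lists and rules were chosen with earlier results of these data known. Alternatives were other scalings, DESeq2 1.42.0, other filters and transcripts, a length correction, the block, each library or number left out, genes with under 5% shared 28-base windows, and removal of trends with splines, the last 2 of which were added after seeing the data. Intervals were not computed from counts, and depth limits the precision of each ratio. Values of some genes that the rule names are not reported here.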

Additional observations from a re-analysis of the deposited data

Results flagged for a closer look

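In 18 of the 254 sets of 4 libraries tested (the genes named above in each assay, and sums of markers), the highest or lowest library stood apart from the other 3 by Dixon's criterion, which chance alone meets in about 1 of 20 sets. In RNA-seq, replicate 3 was the lowest for *Atp5b* (22250 CPM) and *Mdh2* (4522 CPM) and the highest for *Rora* (16.49 CPM), replicate 2 was the highest for *Egfl7* (301.7 CPM) and *Col1a2* (578.1 CPM), and replicate 1 was the lowest for *Ftl1-ps1* (895.7 CPM). In Ribo-seq, replicate 1 was the highest for *Eif3l* (329.2 CPM), *Rpl21* (35.03 CPM) and *Rpl38* (449.4 CPM), the replicate in which ribosomal protein genes were nearest to 0, and the lowest for *Hrc* (2780 CPM), *Atp2a3* (213.8 CPM) and *Hist1h1d* (187.3 CPM). Replicate 3 was the lowest for *Col1a1* (855.2 CPM) and for the sum of fibroblast markers (6640 CPM), replicate 2 the highest for *Pdgfra* (210.3 CPM), and replicate 4 the highest for *Scd2* (309.1 CPM) and *Egfl7* (20.82 CPM) and the lowest for *Cpt1a* (182.1 CPM).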

How the results depend on the processing

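The counts of genes kept to within 1.5 times in 120 of 138 comparisons with alternatives, and of the 117 named genes, tested under 23 alternatives, most kept their direction. The other scalings moved the split: with TMM within each assay 2551 genes were higher and 1108 lower (862 and 344 by the 2-fold test), and with library totals 2541 and 1099 (834 and 344). With a mean count of 50 in each assay, which leaves fewer genes, 2047 genes were called, 1017 higher and 1030 lower, and 492 passed the 2-fold test (205 higher, 287 lower). Without a filter beyond a total of 10 counts 1517 genes passed the 2-fold test, 753 of them higher, and with a correction for coding and transcript length 1719, 904 of them higher. With the replicate number as a block, which pairs the libraries, 3458 genes were called (1696 higher, 1762 lower), and 1039 passed the 2-fold test (458 and 581). Of the genes named, the block added the calls of *Cebpa* (0.643) and *Nap1l1* (−0.249) and changed no other, and of the immediate-early genes it called 7 of 12 higher in place of 3. Leaving out a library or number gave 2924 to 3434 called genes and 812 to 1115 by the 2-fold test.

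The sign of some small ratios turned. With TMM within each assay it did so for *Atp5a1* (0.108), *Cdc42bpa* (0.371), *Mdh2* (0.031), *Rps27l* (0.33) and *Vim* (0.267). With library totals it did for *Atp5a1* (0.109), *Mdh2* (0.036), *Rps27l* (0.339) and *Vim* (0.268). With the trends removed it did for *Mdh2* (0.2), *Rps27l* (0.372), *Sdhb* (0.033) and *Vim* (0.364). With the length correction it did for *Bace1* (0.945), *Col3a1* (−0.074), *Mybpc3* (−0.714), *Myh7b* (−0.177), *Myom2* (−0.053), *Naca* (−0.871), *Ndufb2* (−0.361) and *Pln* (0.683). The same correction turned the medians of the tricarboxylic acid cycle (−0.15), fatty acid oxidation (−0.28), glycolysis (−0.20), tRNA synthetases (−0.65), cell cycle genes (−0.05) and small nuclear ribonucleoproteins (0.09). This length correction takes RNA-seq as counted over the whole transcript, whereas both assays were counted over the coding sequence. It therefore adds a trend with UTR length, and the turns found with it carry that trend. With it the median of the highest minus that of the lowest quintile of 3′ UTR length was 2.44. Causes of the other turns were not tested. Depth limits genes of few footprints, since Ribo-seq libraries were the shallower ones.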
